A study of Mus musculus with 3 samples.

Results

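The comparison described here sets 1 RNA library from mouse B cells grown with the BET inhibitor JQ1+ against 1 library from the same kind of culture grown with the solvent DMSO. It covers every gene with a mean of at least 1 RPKM (reads scaled to the length of the gene and the size of the library) over the 3 libraries of the study, which are 14790 of 33605 gene symbols. All cultures held CD43-negative splenic B cells, taken from C57BL/6 mice and stimulated for 3 days with LPS and IL4. The groups differed in what was added: DMSO alone, JQ1+ at 80 nM, or flavopiridol at 30 nM, an inhibitor of cyclin-dependent kinases whose library enters here only through the mean level and as values set beside the others. RNA was total RNA from which ribosomal RNA had been depleted. Each group had 1 library, so sizes of differences are given with no test, and culture-to-culture spread is unknown. Near the limit of inclusion, Gm15379 and n-R5s85 had mean levels of 1.0003 and 1.0007 RPKM and were kept, while A930039A15Rik at 0.9993 and Mir421 at 0.9970 were left out.

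BET proteins bind acetylated histone tails through their bromodomains and help to bring the kinase complex P-TEFb to promoters and enhancers, where it releases paused RNA polymerase II. JQ1 occupies the bromodomain pocket and displaces these proteins from chromatin. B cells given lipopolysaccharide and interleukin-4 grow, divide, switch antibody class and in part become antibody-secreting cells, and lipopolysaccharide also sets off interferon-stimulated genes. Which of these transcript programmes differed in level after the drug, and which did not, is the question the comparison addresses.

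The change of a gene is given as log2((RPKM JQ1+ + 1)/(RPKM DMSO + 1)), and a gene is called higher or lower when this value is at least 1 in size, a 2-fold difference. Fold differences in plain RPKM carry a 95% interval that covers counting error only. The counts summed to 59786847 in DMSO, 51247080 in JQ1+ and 50184508 in flavopiridol. Since RPKM values are relative within a library, a loss or gain shared by all transcripts would not show. In bulk RNA, fewer cells of a type and less RNA per cell cannot be told apart, nor can direct and indirect effects of the drug after 3 days. B cell markers were present in both libraries: Cd79a stood at 477 RPKM with DMSO and 507 with JQ1+, Cd79b at 1545 and 2127, Ms4a1 at 486 and 1193, Pax5 at 137 and 168 and Ebf1 at 67.0 and 104. The gene type given for the Ebf1 entry is pseudogene, so its value may not be the level of the Ebf1 message. The summed T cell markers stood at 21.3 and 25.4 RPKM, nearly all of it Lck, and 5 of their 6 genes were under 1 RPKM in both libraries. Myeloid, cytotoxic, erythroid and stromal markers summed to 7.82 RPKM or less in either library. The 6 dendritic cell markers summed to 90.01 RPKM in DMSO and 10.72 in JQ1+ through Batf3 (55.9 and 2.98) and Flt3 (26.6 and 2.55), while Zbtb46 stood at 6.63 and 4.36, Xcr1 at 0.918 and 0.763, and Clec9a and Siglech each had 0 counts in DMSO and 2 in JQ1+. The part of such cells in the values below was not tested.

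Most genes moved little. The median change was -0.08, the quartiles were -0.33 and 0.15, and 76.8% of genes lay within 0.5 on the log2 scale. At the 2-fold limit 293 genes were higher, 1.98% of those tested, and 782 were lower, 5.29%. The lean towards lower values grew with size: at a log2 change of 2 there were 31 higher and 178 lower genes, at 3 there were 3 and 51, and at 4 there were 0 and 16. Under the added demand that the counting interval leaves out a ratio of 1, 183 genes were higher and 698 lower. Some calls named below were lost under another scaling. With the libraries scaled by the median of ratios, Stat2, B2m, Psmb10, Ifit1, Trim12c, Trim34b, Hk2, Slc2a3, Mef2c, Birc2, Bcl2a1b and Snhg12 were below DMSO but no longer past 2-fold. With counts per library in place of RPKM the same held for Stat2, B2m, Psmb10, Ifit1, Trim12c, Trim34b, Snhg12 and Bik, and Mir22 was above DMSO but within 2-fold.

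**Figure D1:**
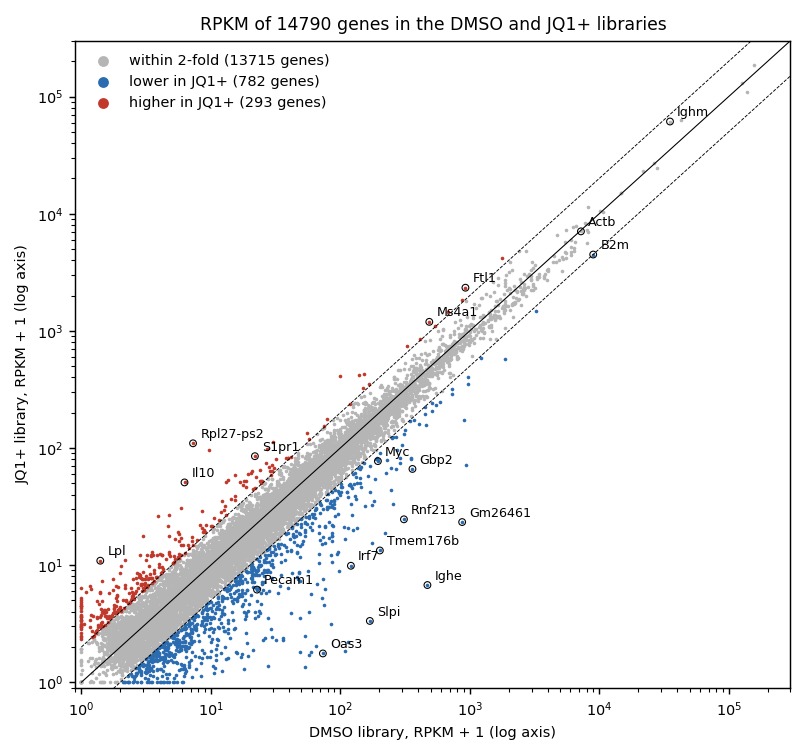
RPKM + 1 in the DMSO library (x axis) and in the JQ1+ library (y axis), both log axes, 1 point per gene; the solid line marks equal values and the dashed lines a 2-fold difference. Blue points, the 782 lower genes, reach further from the line than the red points, the 293 higher genes, and the cloud of 13715 other genes follows the line at all levels.

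No gene went from under 1 RPKM in DMSO to 10 RPKM or more in JQ1+, whereas 18 went the other way. These 18 included the antiviral genes Oas3, Oas2, Oas1g, Mx1, Rsad2 and Ifitm3, but also genes of other kinds. Ido1, which breaks down tryptophan, stood at 52.2 RPKM with DMSO and 0.349 with JQ1+. Gnaz, a G protein alpha subunit, stood at 16.3 and 0.727 RPKM, and Muc1, a cell surface mucin, at 14.8 and 0.769. Enpp6, a choline phosphodiesterase, went from 14.5 to 0.806 RPKM, Msrb3, a methionine sulfoxide reductase, from 12.6 to 0.610, and Sdc3, a heparan sulfate proteoglycan, from 12.0 to 0.567. In flavopiridol, Ido1 stood at 6.13 RPKM, Gnaz at 5.69 and Muc1 at 2.19; both comparisons use the same DMSO library.

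The called share depended on the level of the gene. Below a mean of 2 RPKM over DMSO and JQ1+, 7.69% of 1586 genes were lower and 4.603% higher. Above 100 RPKM, 2.88% of 2013 genes were lower and 0.795% higher, so the ratio of lower to higher calls was larger among well-measured genes. Among the 11367 genes with a 3-library mean of at least 5 RPKM, 471 were lower (4.14%) and 138 higher (1.21%). Base composition moved with the change as well. With protein-coding genes cut into 5 equal groups by the GC content of their longest transcript, the median went from -0.01 in the lowest group to -0.17 in the highest, and the share of lower genes from 3.56% to 6.59%. Exon length went the other way, with 7.12% lower in the shortest of 5 groups and 2.90% in the longest. The part of GC content and length in the gene group differences was not tested. By chromosome, the median ran from -0.14 on chromosome 7 to -0.03 on chromosome 13 among nuclear chromosomes, and all 37 mitochondrially encoded genes stayed within 2-fold with a median of 0.33, 33 of them above 0.

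**Figure D2:**
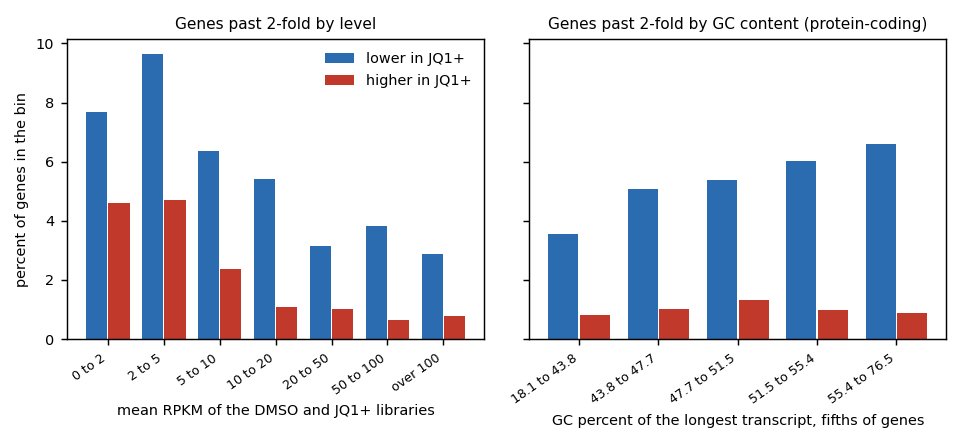
Percent of genes called lower (blue) and higher (red) in JQ1+, by mean RPKM of the DMSO and JQ1+ libraries for all genes (left) and by transcript GC content in 5 equal groups of protein-coding genes (right). The lower share is highest at 9.65% between 2 and 5 RPKM and lowest at 2.88% above 100 RPKM, and goes from 3.56% to 6.59% with GC content.

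By gene type, protein-coding genes were lower at the share of all genes. Of 11325 protein-coding genes 603 were lower (5.32%, against 5.29% over all) and 116 higher (1.02%, against 1.98%), with a median of -0.09. Among the 3465 genes of other types, higher and lower calls were of like number in several types: 36 higher and 39 lower of 271 miRNA genes, 22 and 26 of 362 snoRNA genes, 17 and 16 of 480 antisense genes, and 36 and 45 of 1545 pseudogenes. Among lincRNA genes 13 of 108 were lower and 4 higher, with the snoRNA host gene Snhg12 at 64.2 RPKM with DMSO and 30.0 with JQ1+. At a mean of at least 5 RPKM, 4 of 48 lincRNA genes were lower and 3 higher, with a median of 0.0044. With at least 50 counts over both libraries, 10 of 88 were lower and 3 higher. The calls in small RNA classes rested on few reads. A tested miRNA gene had a median of 6 counts in each library and an snRNA gene 7, and with at least 50 counts over both libraries the calls dropped to 4 higher and 3 lower of 60 miRNA genes, 1 and 1 of 26 snRNA genes, and 2 and 7 of 178 snoRNA genes.

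**Figure D3:**
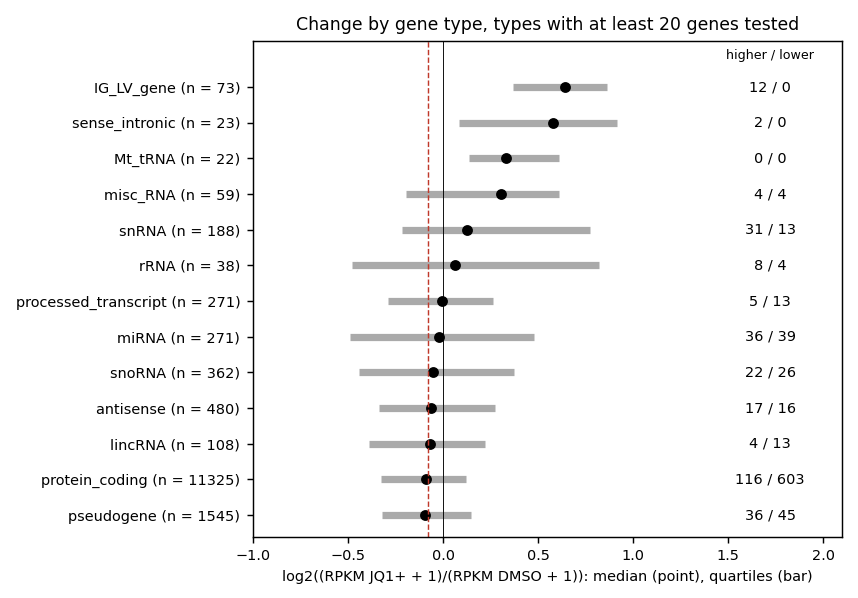
Median (point) and quartiles (bar) of the log2 change for the 13 gene types with at least 20 tested genes, with the counts of genes higher and lower at the right; the solid line marks 0 and the dashed line the median of all genes, -0.08. Antibody variable genes (IG_LV_gene) stand furthest to the right at 0.64, while protein-coding genes and pseudogenes lie at -0.09 and -0.10.

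Antibody variable region genes had the highest median of the 13 types with at least 20 tested genes. Of 73 measured, 70 were above 0, 12 were higher, none was lower, and the median was 0.64. The first place rests on the pseudocount. With 0.1 RPKM their median was 0.67, against 0.73 for transcripts inside introns on the sense strand (sense_intronic). With 0.5 RPKM the medians were 0.64 and 0.69. By symbol, 52 kappa variable genes had a median of 0.54 with 6 higher, and 22 heavy chain variable genes a median of 0.76 with 5 higher. The J segments shared the direction, with 9 of 9 above 0 and a median of 0.57. Igkv8-21 had 99.2 RPKM with DMSO and 407 with JQ1+, and Igkv4-74 18.5 and 58.7. In the flavopiridol library the 73 genes had a median of -0.72 against the same DMSO library. Variable genes resemble each other, so their single values are uncertain. The constant region gene Ighm had the largest gain in library share and went from 1.70% to 3.08% of all counts, a gain of 1.39 percentage points out of 10.3 points gained by all gaining genes together. Of the 6 heavy chain constant genes the other 5 were lower.

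Among long noncoding RNAs, the nuclear RNA Malat1, which sits in splicing speckles, went in share of counts from 0.410% to 0.728%, at 1666 RPKM in DMSO, 2835 in JQ1+ and 839 in flavopiridol. Neat1, the scaffold of paraspeckles, stood at 14.1 RPKM with DMSO and 24.01 with JQ1+. Both stayed within 2-fold of DMSO. Gene models of 23 transcripts lying inside introns on the sense strand had a median of 0.58, 18 of them above 0, with 2 higher. That median was 0.21 with counts per library in place of RPKM, and none of the 13 with at least 50 counts was higher. The RNA component of telomerase, Terc, stood at 147 and 74.4 RPKM.

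Antisense transcripts tended to differ in the same direction as the protein-coding genes they overlap. Of the 480 measured, 415 overlap a measured protein-coding gene, and across these pairs of genes the Pearson correlation of the 2 changes was 0.63, a description over genes that share both libraries. The partner was the gene with the longest overlap on either strand. Some pairs therefore lay on the same strand in GENCODE M21, such as Gm12981 and Sesn2 (changes of -1.47 and -1.36). Where the partner was lower (19 pairs), 7 antisense genes were lower and none higher, with a median of -0.89. Where it was higher (5 pairs), 2 were higher, with a median of 0.72. Where it stayed within 2-fold (391 pairs), 12 were higher and 6 lower, with a median of -0.03. Whether the counting used strand is not given in the sources used here, so reads of an antisense gene and its partner cannot be told apart.

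Several of the largest differences outside protein-coding genes fell on single small or copied gene models. The misc_RNA gene Gm26461 had 873 RPKM in DMSO, 22.3 in JQ1+ and 20.4 in flavopiridol, on 5492 and 126 counts in the first pair. The pseudogene Rpl27-ps2 had 6.28, 109 and 99.8 RPKM in the same order. In both of these the DMSO library stood apart from both others. Most ribosomal protein pseudogenes did not do this: over all 106 with such names the median was -0.23, with 3 higher and 3 lower. Whether such reads came from the pseudogene or its parent gene cannot be told apart.

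Among the 60 microRNA genes with at least 50 counts over both libraries, Mir22 had the largest change upwards, from 8 counts (3.75 RPKM) in DMSO to 47 (26.0 RPKM) in JQ1+, with 3 counts (1.84 RPKM) in flavopiridol. With counts per library in place of RPKM, Mir22 had a change of 0.76, within 2-fold. Its host transcript Mir22hg, counted as a separate gene, stood at 8.94 and 20.5 RPKM, so both features of the locus were higher. A total RNA library of this kind counts the precursor and its host more readily than the mature microRNA. The locus lies on chromosome 11 of the mouse genome, and its mature products, from RefSeq on GRCm38.p6, are shown with the seed (bases 2 to 8) in capitals, since the seed sets which messages a microRNA can pair with:
mmu-miR-22-5p (chr11:75463734-75463755, plus strand): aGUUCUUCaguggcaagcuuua
mmu-miR-22-3p (chr11:75463772-75463793, plus strand): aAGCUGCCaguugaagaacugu

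The interferon programme made up a visible part of the lower genes. The 7 lists of interferon and MHC class I genes hold 152 tested genes, 1.03% of those tested, and 85 of the 782 lower genes, 10.9%, against 1 of the 293 higher genes. These lists were drawn up with earlier results of these libraries known, so their counts are a description. Type I and type II interferons signal through paired receptors, Janus kinases and STAT proteins, which switch on genes that sense and restrict viruses.

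Ordered by role, the upper part of the pathway kept its level. The receptor genes Ifnar1 (41.5 and 56.6 RPKM in DMSO and JQ1+), Ifnar2 (44.2 and 48.4), Ifngr1 (29.4 and 27.4) and Ifngr2 (99.9 and 108) and the kinase genes Jak1, Jak2 and Tyk2 were all within 2-fold. Jak2 stood the highest of these against DMSO, at 45.8 and 80.5 RPKM. The interferon beta gene, Ifnb1, was under the inclusion level in each library. The relay below the receptors had lower calls, though that of Stat2 was lost with median-of-ratios scaling, at -0.92: Stat2 stood at 80.0 RPKM with DMSO and 39.3 with JQ1+, 2.04-fold lower (interval 1.90 to 2.18), and Irf9 at 59.5 and 19.0. Both genes are themselves interferon-stimulated.

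Among the interferon regulatory factors, transcription factors that induce or carry the response, 2 of 11 were lower and none higher. Irf7 stood at 119.7 RPKM with DMSO and 8.87 with JQ1+, 13.5-fold lower (interval 11.6 to 15.8). The members used in other settings held their level: Irf3 (55.2 and 68.0), which acts first after virus sensing, Irf1 (56.2 and 47.8), Irf8 (198 and 181) and the B cell factor Irf4 (235 and 236) had changes between -0.23 and 0.29. The brakes of the pathway were not alike either. Usp18, which blocks the interferon receptor, stood at 63.5 and 1.05 RPKM, while Socs1 (109 and 79.2), Socs3 (47.7 and 37.0) and Ptpn2 (72.3 and 75.7) were within 2-fold.

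Sensors of nucleic acids and other microbial products differed from gene to gene. Of 32 measured, 12 were lower and 1 higher, with a median of -0.59. The RNA sensor Ddx58 (59.6 and 22.1), its relative Dhx58 (67.7 and 11.5), the RNA-activated kinase Eif2ak2 (130.4 and 35.4), the Z-form nucleic acid sensor Zbp1 (83.9 and 11.2) and the DNA-pathway adaptor Tmem173, which encodes STING (227 and 78.1), were lower. Ifih1 (41.7 and 27.8), Aim2 (47.0 and 34.7) and the adaptor Mavs (26.7 and 21.99) were within 2-fold. Among Toll-like receptors, Tlr7 (127 and 48.5) and Tlr2 (8.01 and 3.24) were lower, whereas Tlr9 (13.5 and 15.8) and the lipopolysaccharide receptor Tlr4 (6.71 and 5.53) with its partner Ly96 (50.3 and 47.2) kept their level. Cd180, a B cell relative of Tlr4, was the 1 member that was higher, at 27.4 RPKM with DMSO and 62.1 with JQ1+.

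**Figure D4:**
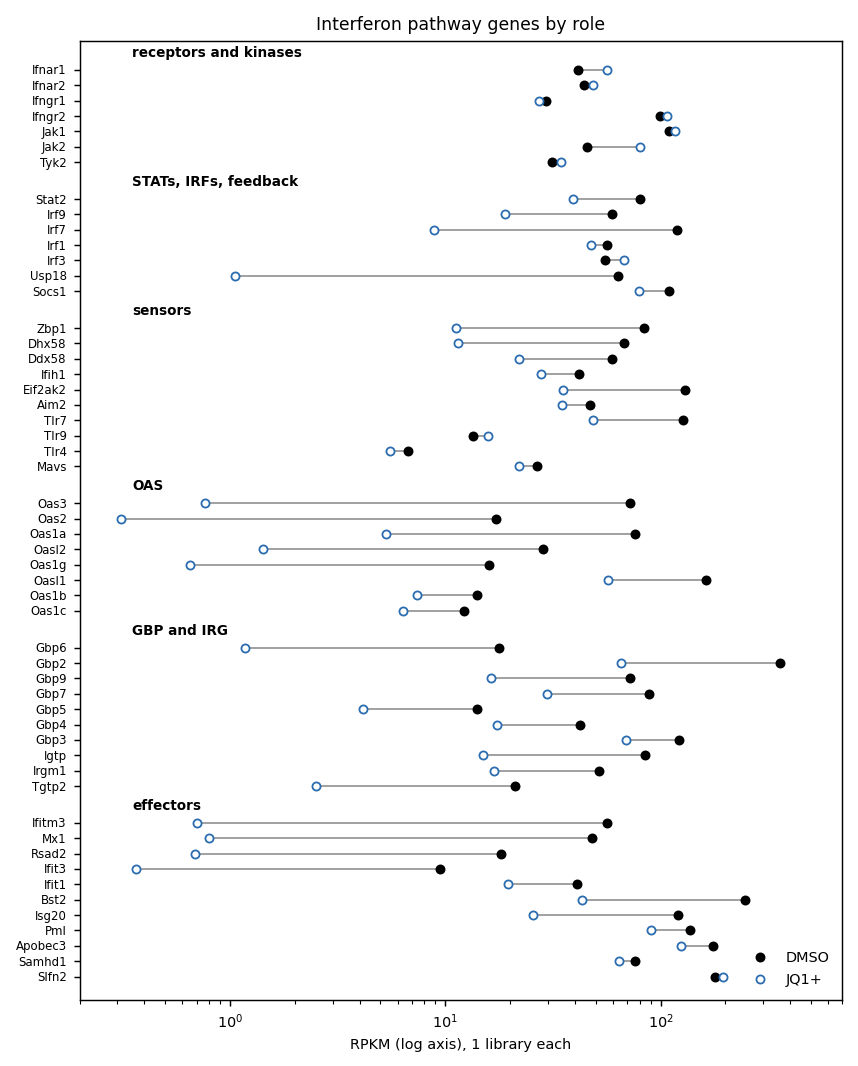
RPKM (log axis) of 53 interferon pathway genes in the DMSO library (filled points) and the JQ1+ library (open points), grouped by role, with a line joining the pair. Receptor and kinase genes lie close together, such as Jak1, while most OAS, GBP and effector genes lie far apart, with Oas3 at 72.4 and 0.761.

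The effectors were lower with few exceptions. Of 45 antiviral effectors 38 were lower, none was higher, and the median was -1.87. The 7 that stayed within 2-fold were Trim21, Sp100, Pml, Apobec3, Samhd1, Slfn2 and Slfn3. Among them Apobec3, which edits viral DNA, stood at 176 and 124 RPKM, and Samhd1, which depletes nucleotides, at 76.2 and 64.1. Within the Schlafen family the members differed: Slfn8 (71.9 and 6.63) and Slfn5 (45.3 and 13.9) were lower, while Slfn2 stood at 178 and 194. Of 12 PARP enzymes 5 were lower, with a family median of -0.75, among them the interferon-inducible Parp12 (5.83 and 0.491), Parp14 (145 and 45.1) and Parp9 (142 and 48.9), while the DNA repair enzyme Parp1 stood at 328 and 289. The giant ubiquitin ligase gene Rnf213 had the largest loss of library share among protein-coding genes, from 309 to 23.6 RPKM, 13.1-fold lower (interval 12.6 to 13.6).

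The oligoadenylate synthetases make the messenger that activates RNase L. Of 9 genes in the list of this group 7 were lower, and the median was -3.36. By symbol, 8 measured genes were OAS genes, of which 6 were lower, with a median of -3.48. Oas3 (72.4 and 0.761), Oas2 (17.2 and 0.310), Oas1a (75.8 and 5.29), Oasl2 (28.4 and 1.42) and Oas1g (16.0 and 0.654) were each over 10-fold lower in plain RPKM. Oas1b (14.1 and 7.37) and Oas1c (12.2 and 6.39) were within 2-fold. The guanylate-binding proteins and immunity-related GTPases, which attack the vacuoles of microbes, were lower in 15 of 16 cases, with a median of -1.89. Gbp6 had the largest change, at 17.9 RPKM with DMSO and 1.17 with JQ1+, and Gbp3 was the 1 member within 2-fold, at 122 and 69.3. The genes of both families include close copies, so the split of reads within them is uncertain.

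Promoter sequence is shown for 8 of these genes to set those that were lower beside those that were not. Each line holds bases from within 250 before the start of the gene, 5′ to 3′ on the strand of the gene, from RefSeq on GRCm38.p6. Capitals mark matches to the interferon-stimulated response element, searched as GAAANNGAAA on both strands with overlapping matches joined. Within the 250 bases before to 50 after the start, 3.44% of all 32851 promoters given hold a match. A comparison of the shares among lower and other genes is void, because the table held a promoter for 469 of the 782 lower genes, 59.97%. The first 6 genes were lower, and the last, Gbp3 and Oas1c, were within 2-fold:
Oas3 (chr5:120777695-120777764, minus strand): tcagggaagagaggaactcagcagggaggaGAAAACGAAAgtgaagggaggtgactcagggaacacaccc
Oas1a (chr5:120907526-120907575, minus strand): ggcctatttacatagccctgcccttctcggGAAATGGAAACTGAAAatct
Rsad2 (chr12:26456533-26456602, minus strand): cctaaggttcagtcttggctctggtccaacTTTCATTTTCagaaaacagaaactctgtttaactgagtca
Ifit3 (chr19:34583343-34583446, plus strand): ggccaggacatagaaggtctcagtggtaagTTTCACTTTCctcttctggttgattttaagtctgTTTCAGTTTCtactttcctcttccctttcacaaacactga
Igtp (chr11:58199492-58199555, plus strand): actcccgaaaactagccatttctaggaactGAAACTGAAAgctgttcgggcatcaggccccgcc
Gbp2 (chr3:142620574-142620643, plus strand): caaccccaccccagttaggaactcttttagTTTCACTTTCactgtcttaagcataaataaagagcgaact
Gbp3 (chr3:142559969-142560043, plus strand): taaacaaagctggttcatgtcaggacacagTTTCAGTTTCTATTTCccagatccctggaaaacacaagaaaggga
Oas1c (chr5:120812583-120812658, minus strand): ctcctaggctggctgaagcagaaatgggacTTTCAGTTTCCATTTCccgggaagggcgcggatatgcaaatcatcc

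All 8 stretches were chosen because they hold a match, so its presence in them is no result, and a match describes the letters only. The Oas1a stretch and that of Oas1g were identical over the 48 bases compared.

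Some lower genes lay side by side in the genome. With the tested genes put in order along the chromosomes (GENCODE M21 order), runs of at least 3 neighbours that were all lower held 99 of 773 lower genes with a position, 12.8%, in 27 runs. Runs of higher genes, which are fewer, held 13 of 285, 4.56%, in 4 runs. Over all tested genes 5.29% were lower and 1.98% higher. The share in runs that these call shares alone would give was not computed, so the 2 shares in runs cannot be compared. The longest run had 7 genes and lay on chromosome 1, where Gm4955, BC094916, Pydc4, Pyhin1, Pydc3, AI607873 and Ifi204, of the interferon-inducible PYHIN family, had changes from -4.33 to -1.95. Other runs held families of copies: Gbp8, Gbp9, Gbp4, Gbp6 and Gbp11 on chromosome 5, Phf11a, Phf11b, Phf11d and Phf11c on chromosome 14, the Trim30 genes with Trim34b and Trim12c on chromosome 7, Ifit2, Ifit3 and Ifit1 on chromosome 19, and Ifi27, Ifi27l2a and Ifi27l2b on chromosome 12. Ly6a, Ly6c1 and Ly6c2 on chromosome 15, surface proteins of the LY6 family, were lower together, with Ly6a at 899 RPKM with DMSO and 171 with JQ1+. Not all runs were families. On chromosome 3 Sema4a, Lmna and Mex3a were lower beside each other, and on chromosome 13 Crhbp, F2rl1 and Iqgap2. Close copies share reads, so a run of copies is not a run of independent values.

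Antigen presentation genes gave lower calls in class I and none in class II. Of 23 MHC class I genes 7 were lower, none was higher, and the median was -0.77, with 21 of 23 below 0. The classical chains H2-K1 (1878 and 1055 RPKM) and H2-D1 (1443 and 845) were within 2-fold, and B2m, the shared light chain, was just past the limit and called lower, at 8989 and 4483. The nonclassical H2-Q7 (182 and 34.4) and H2-Q6 (269.7 and 64.9) were lower. Nlrc5, the activator of class I transcription, stood at 78.5 and 29.4, and the peptide transporter gene Tap1 at 203 and 90.3. Of 15 MHC class II genes none passed 2-fold, and the median was -0.20: H2-Ab1 stood at 2687 and 2344, H2-Eb1 at 2225 and 2233, and the class II activator Ciita at 129.7 and 199.6. The constitutive proteasome behaved like the average gene, with 0 of 31 subunits past 2-fold and a median of -0.09, while the interferon-inducible subunit Psmb10 was lower, at 125 and 59.1. Whether the 2 classes differ could not be tested with 1 library a side.

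Outside the interferon lists, the genes with the widest falls were of many kinds. No list here held 621 of the 782 lower and 267 of the 293 higher genes. Slpi, a protease inhibitor, stood at 168 RPKM with DMSO and 2.34 with JQ1+. The neighbouring membrane protein genes Tmem176b (201 and 12.3) and Tmem176a (221 and 17.8) were lower together, and stood at 111 and 117 RPKM in flavopiridol. Some lower genes stood near or above their DMSO level in the flavopiridol library, chosen after the values were seen: the glycosyltransferase B3gnt7 had 58.8, 4.64 and 112 RPKM in DMSO, JQ1+ and flavopiridol, the secreted ligand Wnt10b 46.2, 6.604 and 44.6, and the phospholipase Plcd1 17.7, 1.64 and 19.0. Lcp2, the adaptor SLP-76 of immune receptors, stood at 94.5, 11.9 and 70.5 in the same order.

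Among unlisted higher genes, also chosen after their values were seen, several act in B cell and metabolic signalling. The kinase Tec, which acts below the B cell receptor, stood at 17.6 and 50.9 RPKM, the Fc receptor-like Fcrl5 at 25.7 and 73.1, and the factor Nfatc1 at 16.8 and 47.1. Ftl1, the ferritin light chain that stores iron, had the highest JQ1+ level among the higher protein-coding genes, at 925 RPKM with DMSO and 2335 with JQ1+, 2.52-fold higher (interval 2.46 to 2.59). Ahr, the aryl hydrocarbon receptor, stood at 6.19 and 16.5, and Sirpa, the receptor of CD47, at 4.24 and 15.7, while Cd47 itself stood at 83.8 and 45.6.

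Metabolic lists leaned lower, each to its own degree. Of 31 genes of glucose uptake and glycolysis 12 were lower, none was higher, and the median was -0.83. The lower members spanned the pathway from the first kinase to lactate: Hk2 (69.0 and 32.3 RPKM), Tpi1 (455 and 156), Pgk1 (76.3 and 34.97), Eno1 (119.7 and 46.0) and Ldha (452 and 195). Glucose transporters did not share one value, with Slc2a1 at 37.1 and 38.6 and Slc2a3 at 8.83 and 3.82, and Hif1a, the factor that drives many of these genes in low oxygen, stood at 74.5 and 78.8. Hypoxia-inducible members of the list were also lower, among them Vegfa (84.8 and 30.6), Bnip3 (23.7 and 7.58) and Pdk1 (20.3 and 8.61).

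The amino acid, serine and stress list had 10 of 45 lower, none higher, and a median of -0.61. Its regulator Atf4 stood at 867 and 706 RPKM and Ddit3 at 64.8 and 54.0, both within 2-fold, while targets such as Asns (185 and 52.8), Cth (68.4 and 15.5), Gpt2 (24.9 and 7.66) and Sesn2 (88.9 and 34.1) were lower. The serine synthesis enzymes moved less, with Phgdh at 133 and 101, Psat1 at 192 and 132 and Shmt2 at 477 and 309.9. None of 35 aminoacyl-tRNA synthetases passed 2-fold, and their median was -0.29.

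Lipid genes gave 2 calls, where 5.29% of all genes were lower and 1.98% higher. Of 39 genes of cholesterol and fatty acid synthesis and transport 1 was lower and 1 higher, with a median of -0.24, 30 below 0 and 9 above. The synthesis enzymes leaned a little lower, such as Fdps (207 and 137), and Elovl6, which lengthens fatty acids, was lower (a change of -1.70). Of those above 0, named after their values were seen, the sterol exporter Abcg1 was higher, at 26.0 RPKM with DMSO and 96.7 with JQ1+, and the exporter Abca1 (1.06 and 2.63) and Mylip, which degrades the LDL receptor (16.1 and 31.2), were above DMSO with changes of 0.82 and 0.91.

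**Figure D5:**
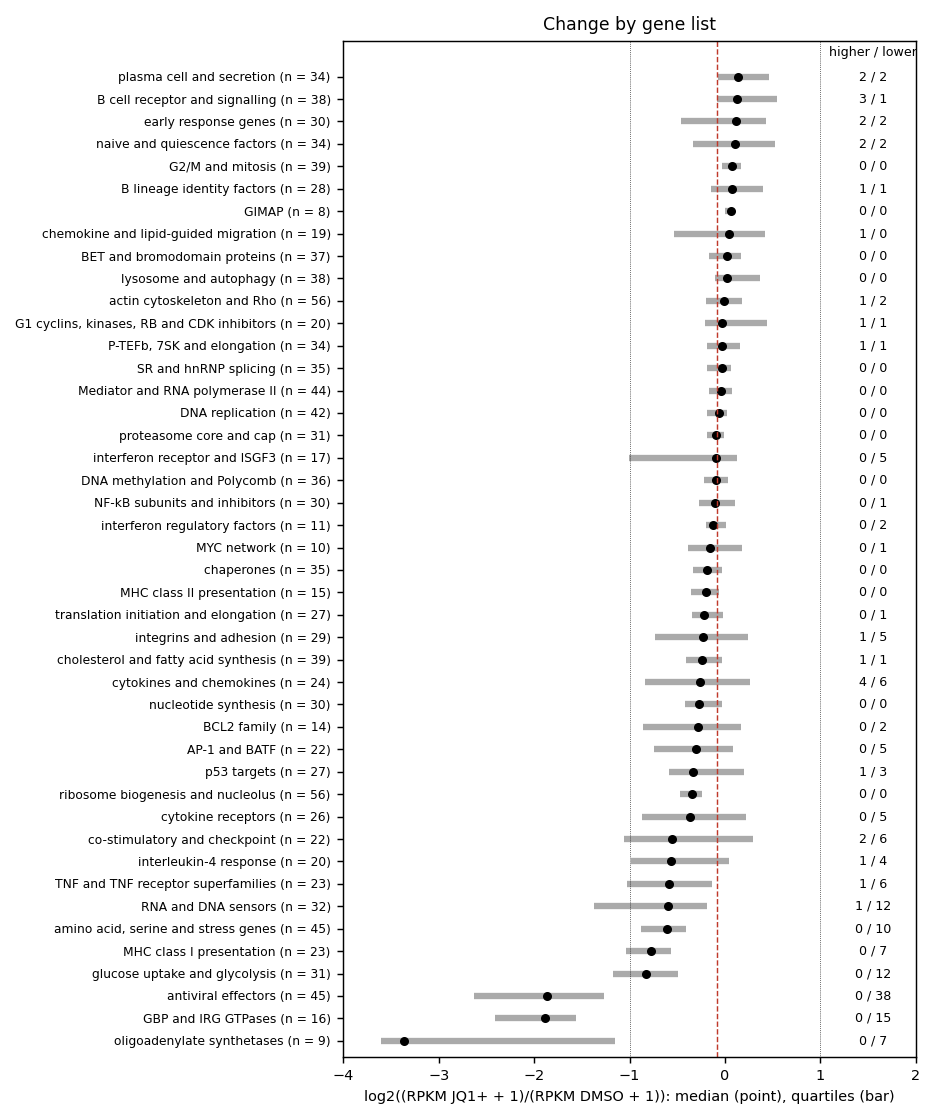
Median (point) and quartiles (bar) of the log2 change for the measured members of 44 gene lists, with the counts higher and lower at the right; the dashed line is the median of all genes, -0.08, and the dotted lines mark 2-fold. The OAS, GBP and IRG and antiviral lists lie far to the left with medians of -3.36, -1.89 and -1.87, and most growth, cell cycle and transcription lists lie near the dashed line with 0 members past 2-fold.

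Growth genes showed small shifts with a narrow spread and almost no member past the limit. In ribosome biogenesis 53 of 56 genes were below 0, the median was -0.34, the quartiles were -0.47 and -0.24, and none passed 2-fold. The largest differences there were those of Ppan (136 and 73.2 RPKM) and the snoRNP protein Gar1 (30.4 and 16.5), and nucleolin, Ncl, stood at 512 and 412. In the flavopiridol library the same 56 genes had a median of 0.38 against the shared DMSO library. Nucleotide synthesis had a median of -0.28 with 0 of 30 past 2-fold, against 0.52 in flavopiridol; chaperones had -0.19 with 0 of 35; and translation factors had -0.22 with 1 of 27 lower. That member was Eif4ebp1, an inhibitor of cap-dependent translation, at 274 RPKM with DMSO and 95.8 with JQ1+. The median of cytosolic ribosomal protein genes was -0.17, with 1 of 84 lower, and that of mitochondrial ribosomal proteins -0.13, with 0 of 80.

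In the MYC network, whose factors drive many growth genes, Myc was lower, at 194 RPKM in DMSO, 76.2 in JQ1+ and 243 in flavopiridol. Its partner Max stood at 148 and 93.0. The antagonists that also pair with Max went in both directions without passing 2-fold: Mxd4 stood at 26.8 and 53.1, Mxd3 at 18.8 and 23.9, Mxd1 at 12.0 and 8.84 and Mnt at 11.3 and 10.2.

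Cell cycle genes held their level, where 5.29% of all genes were lower and 1.98% higher. Of 42 DNA replication genes none passed 2-fold, with a median of -0.06, and the 6 MCM helicase genes were all slightly below 0, such as Mcm3 (385 and 278 RPKM). Of 39 G2/M genes none passed 2-fold, with a median of 0.08: Cdk1 stood at 73.4 and 73.6, Ccnb1 at 36.5 and 41.8, and the proliferation marker Mki67 at 386 and 528. Among inhibitors of cyclin-dependent kinases the members went apart, with Cdkn1a lower (14.7 and 4.18), Cdkn2b higher (7.47 and 19.8), and Cdkn1b (43.2 and 55.9) and Cdkn2c (19.6 and 31.6) within 2-fold. Of 63 histone genes 3 were higher and none lower, with a median of 0.01; Hist1h2ba, the testis-type H2B gene, stood at 19.6 and 60.3.

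Genes of the machinery the drug acts on gave 2 calls over the lists below, where 5.29% of all genes were lower and 1.98% higher. Of 37 bromodomain genes none passed 2-fold, with a median of 0.02. Among BET genes, whose products JQ1 binds, levels were 143 and 194 RPKM for Brd2 and 22.3 and 14.1 for Brd3. In the P-TEFb and elongation list 1 of 34 was lower and 1 higher, with a median of -0.03: the 7SK-binding inhibitor Hexim2 was lower (10.01 and 3.79) and Ell3 higher (2.29 and 5.75). The 7SK RNA itself, Rn7sk, made up 1.47% of counts in DMSO and 1.58% in JQ1+. Mediator and RNA polymerase II genes had 0 of 44 past 2-fold, splicing factors 0 of 35, and DNA methylation and Polycomb genes 0 of 36, with medians of -0.04, -0.03 and -0.09. The medians of the Mediator, elongation, splicing, replication and G1 lists turned to between 0.03 and 0.06 when the libraries were scaled by the median of ratios, so their sign is not a result.

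B cell receptor and signalling genes leaned higher, with a median of 0.13, 3 of 38 higher and 1 lower (1.98% and 5.29% over all genes). The kinase genes Syk (54.5 and 132 RPKM) and Blk (38.7 and 80.7) and the receptor phosphatase gene Ptprj (12.0 and 50.2) were higher, and the adaptor Dok2 was lower (20.2 and 0.896), standing at 16.0 in flavopiridol. The inhibitory co-receptor gene Cd22 did not share that lean, at 548 and 294. Malt1 (78.1 and 136) and Prkcb (69.3 and 117), which act below the receptor, stood above DMSO within 2-fold, named after their values were seen. Of the 38 genes 25 were above 0 and 13 below.

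Lineage factors were called at about the share of all genes, 1.98% higher and 5.29% lower: of 28, 1 was higher and 1 lower, with a median of 0.07. Pax5, Ebf1, Spib and Ikzf3 stood above DMSO within 2-fold, with changes of 0.29, 0.63, 0.79 and 0.57, Mef2c was lower (368 and 174), and Id2, which blocks E proteins, was higher (11.2 and 34.3). The Ebf1 entry is typed as a pseudogene, so its change may not be that of the Ebf1 message. Among 34 plasma cell and secretion genes 2 were higher and 2 lower, with a median of 0.13. The plasma cell regulator Prdm1 stood at 26.9 and 67.2 RPKM and the secretory factor Creb3l2 at 8.18 and 20.9, while Xbp1 (556 and 553), Irf4 and the J chain gene Igj (783 and 693) held their level. The secretory folding genes Hsp90b1 (1344 and 2079) and Pdia4 (1072 and 1697) were among those that gained most library share, by 0.117 and 0.0612 percentage points, within 2-fold.

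Naive and quiescence factors went both ways, with 2 of 34 higher, 2 lower and a median of 0.10. On these small numbers the lower count is near the share of all genes, 5.29%, where 1.98% were higher. The egress receptor gene S1pr1 stood at 20.9 RPKM with DMSO and 84.1 with JQ1+ and the CD20 gene Ms4a1 at 486 and 1193, both higher. The antiproliferative Btg1 (92.9 and 180.4) and Btg2 (103 and 192) and the factor Foxp1 (46.0 and 90.3) stood just within 2-fold above DMSO. The chromatin organiser Satb1 was lower, at 108 and 15.8, as was the factor Klf7 (14.7 and 5.03).

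Secreted factors moved in opposite directions by gene. Of 24 measured cytokine and chemokine genes 4 were higher and 6 lower (1.98% and 5.29% over all genes), with a median of -0.26. The lower ones were Il6 (47.8 and 2.56 RPKM), Ebi3 (256 and 32.5), Ltb (68.0 and 17.7), Lta (31.1 and 11.5), Lif (2.41 and 0.159) and Vegfa. The higher ones were Ccl3, Ccl4, Il10 and Spp1, and Spp1, which encodes osteopontin, had a change of 1.79. Tnf (76.3 and 55.9), Tgfb1 (61.6 and 67.8) and Il2 (3.78 and 3.41) were within 2-fold.

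Cytokine receptors gave lower calls only: 5 of 26 were lower and none higher, against 5.29% and 1.98% over all genes. Their median was -0.37. The decoy receptor Il1r2 (84.1 and 2.12), Il9r (7.14 and 0.633), Il12rb1 (24.7 and 7.11) and Il2rb (28.0 and 9.07) were lower, besides Flt3. The receptor chains for the cytokine in the culture held, with Il4ra at 646 and 580.2 and the shared chain Il2rg at 183 and 124, and its transducer Stat6 stood at 96.8 and 63.8. Il10ra, a receptor chain for Il10, stood at 27.6 and 37.7. Of 20 interleukin-4 response genes 4 were lower and 1 higher, with a median of -0.56; the higher one was the transcription factor Bhlhe40, at 28.2 and 57.5.

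Contact molecules leaned lower, where 5.29% of all genes were lower and 1.98% higher. In the TNF and TNF receptor families 6 of 23 were lower and 1 higher, with a median of -0.59: Tnfrsf8, which encodes CD30, stood at 133 RPKM in DMSO, 19.9 in JQ1+ and 166 in flavopiridol, and Tnfsf9 at 16.4, 5.09 and 19.4. The higher member was Tnfsf14, the ligand LIGHT, at 1.62 and 6.69. Cd40, by which T cells help B cells, held its level (71.6 and 65.5), as did the survival receptor gene Tnfrsf13c (388 and 399.8). Of 22 co-stimulatory and checkpoint genes 6 were lower and 2 higher, with a median of -0.56. The CD28 ligands Cd80 (9.87 and 3.22) and Cd86 (77.9 and 35.2) and the PD-1 ligand Pdcd1lg2 (14.8 and 3.90) were lower, whereas the other PD-1 ligand, Cd274, held (35.4 and 39.4) and PD-1 itself, Pdcd1, was higher (2.93 and 25.1).

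Of 29 integrin and adhesion genes 5 were lower and 1 higher (5.29% and 1.98% over all genes), with a median of -0.23. Itgb3 stood at 96.8 RPKM with DMSO and 7.93 with JQ1+, Cd44 at 299 and 106 and Pecam1 at 21.7 and 5.18, while Itgb1 (102 and 151), Itgb2 (119.5 and 107) and Itgal (52.4 and 32.2) were within 2-fold. Epcam, at 3.21 and 11.2, was the higher one.

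Inducible transcription factors were uneven within their families. Beside them 5.29% of all genes were lower and 1.98% higher, and the lower counts of NF-kB and early response genes were near that share on small numbers. Of 22 AP-1 and BATF genes 5 were lower and none higher, with a median of -0.31: Batf3, Jdp2 (33.2 and 5.62 RPKM), Fosl2 (4.75 and 0.897), Cebpb (26.3 and 8.04) and Atf3 (57.0 and 20.3). Batf, the partner of Irf4 in activated lymphocytes, stood at 405 and 278, Junb at 397 and 251 and Fos at 32.5 and 62.5, all within 2-fold. Of 30 NF-kB subunits and inhibitors 1, Birc2 (144 and 67.4), was lower and none higher, with a median of -0.10; Nfkb1 stood at 696 and 436, Rela at 72.9 and 60.2, and the inhibitor Nfkbia at 246 and 263. Of 30 early response genes 2 were lower, Ier3 (6.93 and 1.548) and Dusp5 (52.1 and 18.1), and 2 higher, Rgs2 (1.49 and 6.56) and Sgk1 (1.45 and 4.20).

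Survival genes had lower calls at a share above that of all genes, 5.29%, on small numbers. Of 14 BCL2 family genes 2 were lower, Bcl2a1b (510.3 and 242 RPKM), which has close copies, and Bik (a change of -1.27). The median was -0.28, with Bcl2 at 29.4 and 15.01, Bcl2l1 at 44.8 and 57.7, Mcl1 at 339 and 468 and the pro-apoptotic Bcl2l11 at 81.8 and 109. Of 27 p53 targets 3 were lower and 1 higher, with a median of -0.33, and Trp53 stood at 38.9 and 24.9.

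Over all genes 5.29% were lower and 1.98% higher. Of 288 Zfp zinc finger genes 12 were lower (4.17%) and none higher, with a median of -0.12. Of 188 solute carriers 16 were lower and 2 higher, with a median of -0.12, and of 155 Tmem genes 11 were lower and 1 higher. None of 27 kinesins, 37 complex I subunits, 19 ATP synthase subunits, 68 heat shock and DnaJ genes or 37 MAP kinases and their upstream kinases passed 2-fold. Of 39 TRIM proteins 9 were lower and none higher. Among small families, 3 of 7 RGS genes, which shorten G protein signals, were higher and none lower, with Rgs16 at 1.77 and 7.37 RPKM, and lysosome and autophagy genes had 0 of 38 past 2-fold with a median of 0.02.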

How the data were processed

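Total RNA was measured in 3 libraries, 1 each for DMSO, JQ1+ and flavopiridol, grouped by the treatment label; the culture label of the JQ1+ sample repeats the DMSO wording, and the labels do not say whether the same mice gave all cultures. Trizol extraction and Ribo-Zero depletion of ribosomal RNA are per the labels' protocols. Per the file headers, the authors deposited for each gene a whole-number count and an RPKM. The genome build was mm9, per the submitters' processing notes; aligner, counting tool and strandedness were not given in the sources used here. Deposited counts sum to about 2.83 times the totals implied by the RPKM values (2.84, 2.72 and 2.92 times by library), so counts were divided by 2.83 for the exact binomial 95% interval of a ratio. Intervals cover counting error only. A count of 0 allows up to 3 counts, or 0.0502, 0.0585 and 0.0598 CPM in DMSO, JQ1+ and flavopiridol.

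Of 33700 rows, 1 row was kept for each of 33605 symbols, that of the highest mean. A gene entered when its mean over the 3 libraries reached 1 RPKM, and the change used a pseudocount of 1 RPKM, which makes the change of low genes smaller. Calls are by size alone, as 1 library a side allows no test. Gene order came from GENCODE M21, and promoters and microRNAs from RefSeq on GRCm38.p6; no coordinate was converted between builds. Members, lists and rules were chosen with earlier results of these data known. Genes were named where they were among the 25 largest changes a side at a mean of at least 5 RPKM, the 5 largest of a list, the 4 largest of a gene type, members of a pathway role, neighbours in a run, or at the inclusion limit. Other named genes were chosen for their role after their values were seen. Some genes within the rule are not reported here. The alternatives were pseudocounts of 0.1 and 0.5, no filter, a mean of at least 5 RPKM, a mean over DMSO and JQ1+ only, median-of-ratios scaling, scaling without antibody genes, CPM from the counts, summed rows, a call that also asks for the counting interval, and, added after the data were seen, at least 50 counts for gene types. Scripts ran in Python 3.11.15 with pandas 2.3.3, numpy 2.4.6, scipy 1.17.1 and matplotlib 3.10.9 and were tested on simulated data.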

Additional observations from a re-analysis of the deposited data

How the results depend on the processing

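Each group had 1 library, so leaving out a replicate was not possible and differences between cultures cannot be told apart from effects of the drug. No paired analysis was possible because each group had 1 library. No called gene changed sign under any alternative run. The 293 higher genes became 503 with a pseudocount of 0.1, 138 at a mean of at least 5 RPKM, 165 with CPM and 183 with the counting interval. The 782 lower genes became 471 at a mean of at least 5 RPKM and stayed within 1.5 times under the others. Lower genes made up 72.7% of calls, and between 65.2% (median-of-ratios scaling) and 79.2% (counting interval) otherwise. With CPM, 570 of the 782 lower and 127 of the 293 higher genes kept their call. Median-of-ratios scaling multiplied the JQ1+ values by 1.06, a log2 shift of 0.09 before the pseudocount, whereas CPM moved each gene by its own amount.

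The median of all genes, -0.08, was -0.0893 with a pseudocount of 0.1, 0.0000 with no filter and with median-of-ratios scaling, -0.0158 scaled without antibody genes and -0.0200 with CPM, so its sign rests on the scaling. With no filter the class medians were 0.2335 for IG_LV_gene, -0.0037 for protein_coding and 0.0000 for antisense, misc_RNA, pseudogene, sense_intronic and snRNA. With median-of-ratios scaling they were 0.7283 for IG_LV_gene, 0.0162 for antisense, 0.0737 for processed_transcript, -0.0067 for protein_coding and -0.0125 for pseudogene. Without antibody genes they were 0.0004 for antisense, -0.0237 for protein_coding and -0.0295 for pseudogene. At a mean of at least 5 RPKM they were -0.0810 for protein_coding and -0.1305 for pseudogene, and with CPM -0.0319 and -0.0267. The sense_intronic median, 0.58, was 0.2115 with CPM. The cause was not tested beyond the construction of each setting. Of 47 gene list medians 7 changed sign with median-of-ratios scaling. Of 5191 values of single genes under the alternatives, 386 moved past their counting interval.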
